A study of Homo sapiens with 18 samples.

Results

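The genes described here encode the protein-folding machinery of the endoplasmic reticulum (ER): its stress sensors, its chaperones, its disulfide and prolyl isomerase enzymes, its degradation system and the translocon through which proteins enter. They were taken by symbol from a list of 44 genes, chosen by function, out of 26249 genes in the tables. The tables held 42 of these symbols directly, and ERO1L and ERO1LB were found as ERO1A and ERO1B through RefSeq synonyms. Transcripts had been read from their 3′ ends by RNA sequencing, in 18 libraries of human cell lines labelled as the multiple myeloma lines XG1 and AMO1, in 6 groups of 3. Each line had been kept for 6 h in DMSO, the solvent, or in 100 nM or 1000 nM YKL-5-124, a covalent inhibitor of CDK7, a kinase of the transcription factor TFIIH that acts on RNA polymerase II. The labels give no other agent, no genotype and no clone for any group, and the series title speaks of resistant lines and of CDK7 inhibition. The comparisons ask how each dose changed these transcripts in each line, whether the lines responded differently, and how the lines differed without inhibitor.

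Plasma cells, the cells from which myeloma arises, secrete antibody, and each antibody chain enters the ER through the SEC61 channel, folds on chaperones such as HSPA5 (BiP) and is joined by disulfide bonds. When unfolded protein builds up, the sensors IRE1 (gene ERN1), PERK (EIF2AK3) and ATF6 start the unfolded protein response, which acts through the factors XBP1, ATF4 and ATF6 and raises chaperone, disulfide enzyme and degradation transcripts. Proteins that fail to fold are recognised by lectins, passed back through a membrane complex around SEL1L and SYVN1, and destroyed by the proteasome.

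Marker genes went against the label of the XG1 libraries. The summed level of 10 plasma cell markers was 44.4 to 75.9 FPKM in these 9 libraries, where PRDM1, IRF4, CD38, SLAMF7 and POU2AF1 each stayed under 1 FPKM, and 4808 to 7249 FPKM in the AMO1 libraries. For 14 erythroid markers the sums were 3768 to 4520 FPKM in the XG1 libraries and 4.01 to 30.8 FPKM in AMO1, and for 8 T cell and myeloid markers 20.7 to 38.0 and 1.41 to 3.46 FPKM. The name XG1 is used below only as the label of those libraries. Between 9284 and 10571 genes per library reached 1 FPKM, the fewest in XG1 1000 nM replicate 2 and, within AMO1, in 100 nM replicate 2. Read depth is unknown, because FPKM values carry no counts.

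Among the 44 genes, 42 had a mean of at least 1 FPKM in some group and were tested. ERO1B, a disulfide oxidase, was at 0.113 to 0.885 FPKM over the libraries and was not tested. ERN1, given below, was not tested either. PDIA3 and SSR4 have copies in the tables, PDIA3P1 at 0.591 to 3.70 FPKM and SSR4P1 at 0.295 to 2.53 FPKM, with which their reads can be shared. Use of strand in the counting is not stated by the labels or headers, and a transcript overlapping one of these genes on the opposite strand cannot be told apart from it.

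Promoter sequence is shown first because HERPUD1 and HSPA5, on which much of what follows turns, carry the textbook sites of the unfolded protein response. RefSeq promoter entries (GRCh38.p14, 250 bases before the start) matched 40 of the 44 genes, and DERL1, DERL3, PDIA3 and SEC24D had none. The ER stress element, to which ATF6 binds together with NF-Y, was searched on both strands as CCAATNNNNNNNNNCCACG. It was found in 25 of 27305 genes with an entry (0.0916%) and in 7 of the 40 (17.5%): HSPA5, HSP90B1, CALR, CANX, PDIA6, CRELD2 and ERO1B. ER stress element II, searched as ATTGG and CCACG with any 1 base between them, was found in 18 genes (0.0659%) and in HYOU1, SDF2L1 and HERPUD1 (7.5%). The TGACGTG core of ATF6 and XBP1 sites was found in 561 genes (2.05%) and in HYOU1, DNAJC10, TXNDC5, SSR3 and SSR4 (12.5%), in HYOU1 overlapping its element II. A match describes the letters of the window and does not show that a factor was bound.

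The whole windows of HERPUD1 and HSPA5 are shown 5′ to 3′ on the strand of the gene, with the element in capitals.
HERPUD1 (chr16:56931892-56932141, plus strand): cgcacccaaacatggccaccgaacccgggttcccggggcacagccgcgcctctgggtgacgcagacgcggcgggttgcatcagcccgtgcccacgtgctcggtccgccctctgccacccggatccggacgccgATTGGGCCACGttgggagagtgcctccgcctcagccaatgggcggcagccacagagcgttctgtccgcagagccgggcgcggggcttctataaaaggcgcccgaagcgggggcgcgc
HSPA5 (chr9:125241344-125241593, minus strand): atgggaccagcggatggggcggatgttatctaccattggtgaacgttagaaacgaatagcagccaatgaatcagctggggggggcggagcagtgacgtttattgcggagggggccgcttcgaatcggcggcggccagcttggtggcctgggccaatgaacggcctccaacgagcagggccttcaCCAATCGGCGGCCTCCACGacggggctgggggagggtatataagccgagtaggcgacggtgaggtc
In HERPUD1 the ATTGG and CCACG of element II stand 1 base apart, and in HSPA5 the CCAAT and CCACG of the element are 9 bases apart.

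For the 8 other carriers the element is shown with up to 12 flanking bases, read on the strand of the element, and capitals mark its fixed letters. They are set side by side with the 2 windows above because all 10 genes carry an element.
HSP90B1 (chr12:103930204-103930246, plus strand): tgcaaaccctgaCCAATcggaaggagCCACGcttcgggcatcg
CALR (chr19:12938372-12938414, minus strand): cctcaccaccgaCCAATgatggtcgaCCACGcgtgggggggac
CANX (chr5:179698766-179698808, plus strand): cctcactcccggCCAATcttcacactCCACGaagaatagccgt
PDIA6 (chr2:10812841-10812883, minus strand): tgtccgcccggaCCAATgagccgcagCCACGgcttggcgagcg
CRELD2 (chr22:49918542-49918584, minus strand): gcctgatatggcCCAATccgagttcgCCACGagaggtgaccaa
ERO1B (chr1:236282171-236282208, plus strand): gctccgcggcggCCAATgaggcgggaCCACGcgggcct
HYOU1 (chr11:119057368-119057402, plus strand): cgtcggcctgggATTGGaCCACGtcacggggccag
SDF2L1 (chr22:21642102-21642136, minus strand): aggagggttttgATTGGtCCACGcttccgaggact
The letters between the fixed parts differed among all of these windows. HSP90B1 and HYOU1 each hold another match that is not printed.

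With YKL-5-124, most of the ER genes were not called, and a few fell. HERPUD1, a membrane scaffold of the degradation complex, and CREB3L2, an ER-bound transcription factor, fell in both lines at both doses. HSPA5, the main ER chaperone, fell in the XG1 libraries at both doses and in AMO1 at 1000 nM. MANF, a secreted protein that binds HSPA5, fell at 1000 nM in both lines, and FKBP11, a prolyl isomerase of secretory cells, rose in the XG1 libraries. Log2 changes here are limma estimates ± SE on the log2(FPKM + 1) scale, which understates changes of low genes, levels are in FPKM with SD over 3 libraries, and a gene is called when its limma p, adjusted over all 12204 genes tested, is under 0.05. Nothing in the labels shows that the 3 libraries of a group came from separate cultures, and the spread behind each p may therefore be technical. The RNA is from whole cultures, in which fewer cells of a type and less RNA per cell cannot be told apart.

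In the XG1 libraries at 100 nM, 4 of 42 ER genes were called, 1 higher and 3 lower, where 6.61% of all genes tested were called (2.63% higher and 3.98% lower). At 1000 nM it was 6 of 42, 1 higher and 5 lower, beside 17.6% of all genes (1.9% higher and 15.7% lower). AMO1 had 2 of 42 lower at 100 nM, beside 2.2% of all genes (0.434% higher and 1.76% lower), and 6 of 42 lower at 1000 nM, beside 17.1% (1.78% higher and 15.4% lower). At 1000 nM the ER genes called were 14.3% of those tested in each line, near the share of all genes, and which share was larger depended on the setting. For XG1 it was 26.2% of ER genes beside 19.5% of all genes after quantile normalization, and 11.4% beside 5.92% with no filter on low genes. In AMO1 it was 14.3% beside 10.3% without DMSO replicate 1. The median change of the ER genes was 0.07 and -0.17 log2 at 100 and 1000 nM in the XG1 libraries and 0.04 and -0.14 in AMO1, beside -0.01, -0.19, -0.09 and -0.18 for all genes. Within a line the doses were set against the same DMSO libraries. In the XG1 libraries DMSO replicate 3 was the lowest of its group in 32 of the 42 ER genes and in 54.2% of all genes tested. Without it 5 ER genes were called at 100 nM, with MANF added, beside 4.33% of all genes. At 1000 nM 8 were then called, with DNAJC10 and ERO1A added, beside 16.5% of all genes. XG1 1000 nM replicate 2 was the lowest of its group in 26 of the 42 ER genes and in 69.2% of all genes, and without it the median of the ER genes at 1000 nM was -0.03, 5 ER genes were called, and 9.78% of all genes. Some marker sums moved with dose as well. In the XG1 libraries the sum of the 10 plasma cell markers was 72.1 to 75.9 FPKM in DMSO, 45.4 to 66.4 at 100 nM and 44.4 to 55.2 at 1000 nM. Most of it was XBP1, itself a factor of the unfolded protein response, with a mean of 53.9 FPKM in DMSO and 31.2 at 1000 nM. The sum of the 8 T cell and myeloid markers was 31.9 to 38.0, 28.6 to 33.0 and 20.7 to 27.2. The erythroid sum was 4355 to 4491 FPKM in DMSO, 4098 to 4166 at 100 nM and 3768 to 4520 at 1000 nM. The AMO1 plasma cell sums were 5215 to 7249, 5698 to 6596 and 4808 to 5454 FPKM. Their part in the dose results was not tested.

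How libraries are scaled moves the split of higher against lower calls. Centring each library on its median log2 value turned the median change of all genes at 1000 nM to 0.07 (XG1 libraries) and 0.11 (AMO1), and centred changes stand beside the 1000 nM values of the called ER genes below. After centring, AMO1 at 1000 nM had 2 ER genes higher (OS9 and SYVN1) and 3 lower (HERPUD1, CREB3L2 and EDEM3), beside 8.29% of all genes higher and 6.68% lower. After quantile normalization the XG1 libraries had 4 higher and 3 lower at 100 nM, with CANX, SSR4 and SYVN1 added to FKBP11, and 6 higher and 5 lower at 1000 nM, with CANX, DNAJB11, DNAJC3, P4HB and SSR4 added. Of all genes 7.31% were then higher and 8.08% lower at 100 nM, and 9.62% higher and 9.91% lower at 1000 nM. AMO1 at 1000 nM then had 1 higher (OS9) and 4 lower, beside 7.06% and 8.28% of all genes.

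**Figure D1:**
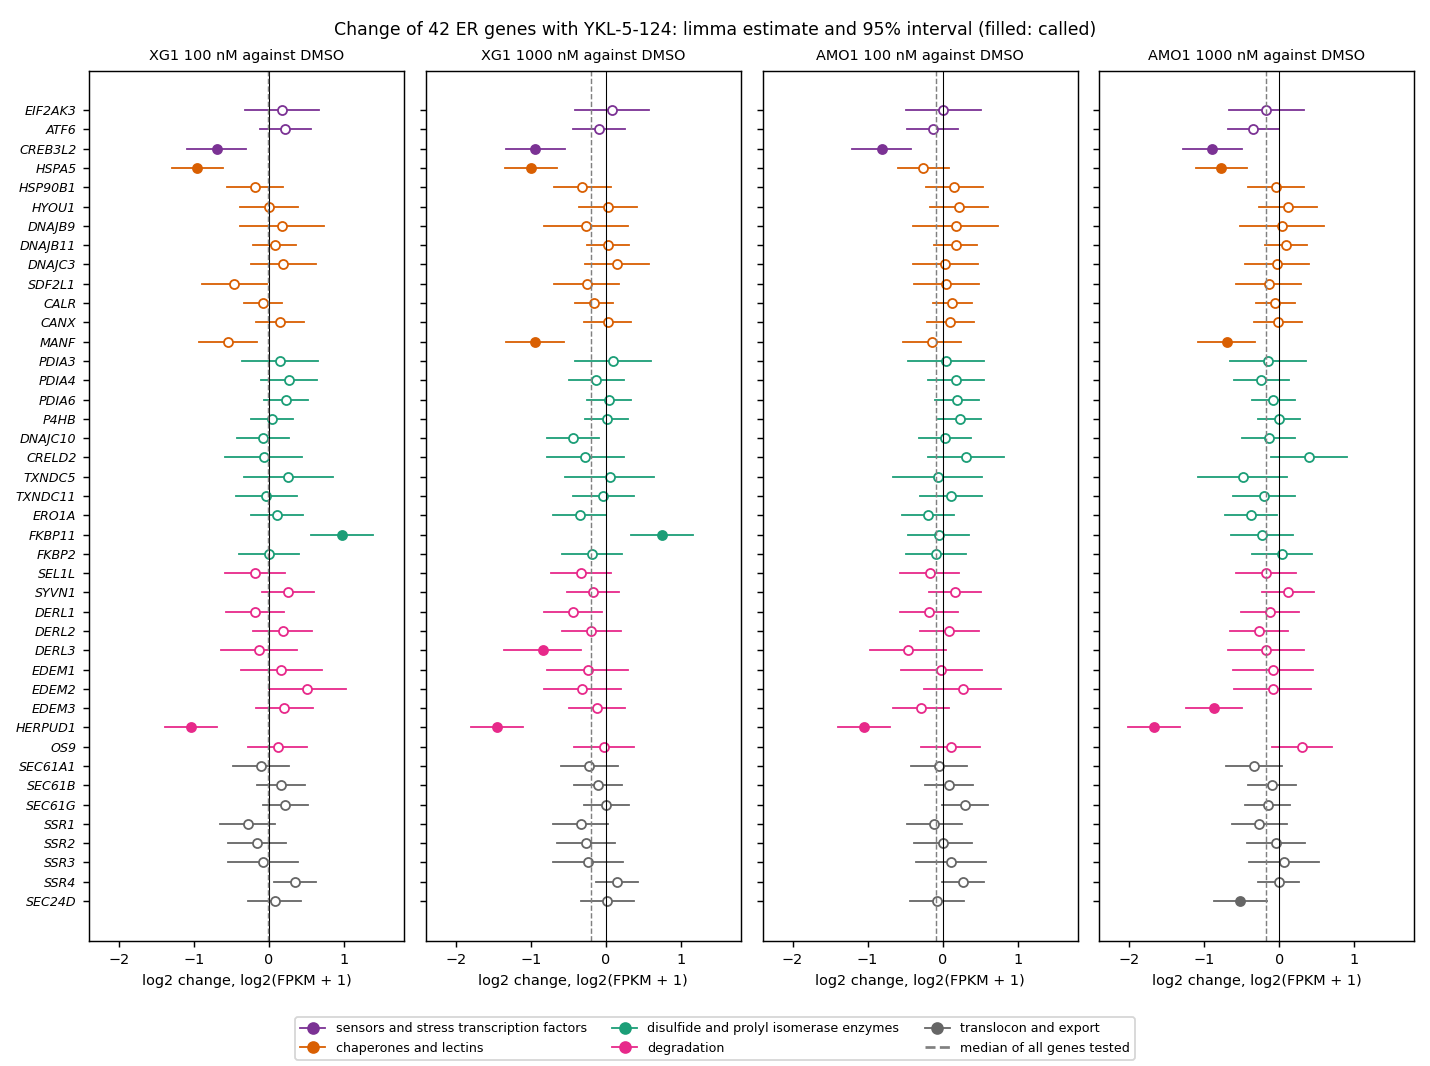
Log2 change of the 42 tested ER genes (rows, coloured by role) in the 4 comparisons of a dose with DMSO, as limma estimate and 95% interval on the log2(FPKM + 1) scale; filled points were called, and the dashed line is the median of all genes tested. HERPUD1 and CREB3L2 are filled and left of 0 in every panel, FKBP11 is filled and right of 0 in the XG1 panels, and most other intervals cross 0.

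The sensors come first. ERN1, which encodes IRE1, the kinase and RNase that splices XBP1 mRNA, was at 0.121, 0.124 and 0.0953 FPKM in the XG1 DMSO libraries, 0.147, 0.297 and 0.119 at 100 nM and 0.157, 0.227 and 0.107 at 1000 nM. Its AMO1 levels were 0.405, 0.262 and 0.221 FPKM in DMSO, 0.0864, 0.124 and 0.264 at 100 nM and 0.261, 0.195 and 0.354 at 1000 nM. All 18 values lie under 1 FPKM and the groups of each line overlap, so no change of ERN1 was read. The tables hold no value of 0, and the commonest low value of a library was 0.1231, 0.08796 and 0.09809 FPKM in XG1 DMSO. The ERN1 values there lie near this floor and may not be measured levels.

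EIF2AK3, the PERK kinase, was at 2.94, 1.76 and 1.69 FPKM in XG1 DMSO libraries, 2.79, 2.26 and 2.40 at 100 nM and 4.28, 1.35 and 1.8 at 1000 nM. In AMO1 it was at 26.3, 33.3 and 34.1 FPKM in DMSO, 32.3, 29.9 and 31.4 at 100 nM and 31.5, 30.5 and 21.3 at 1000 nM. The dose groups overlapped with DMSO in both lines. Its log2 change was 0.17 ± 0.24, 0.08 ± 0.24, 0.01 ± 0.24 and -0.18 ± 0.24 (XG1 100 and 1000 nM, then AMO1 100 and 1000 nM; limma adjusted p = 0.771, 0.878, 0.997 and 0.701), none called.

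ATF6, the sensor that is cut to release a transcription factor, was at 9.39, 8.44 and 6.78 FPKM in XG1 DMSO libraries, 8.2, 11.4 and 9.50 at 100 nM and 8.48, 6.35 and 8.11 at 1000 nM. In AMO1 its levels were 8.54, 7.44 and 7.84 FPKM in DMSO, 7.51, 6.30 and 7.72 at 100 nM and 5.92, 6.07 and 6.05 at 1000 nM. Only the AMO1 1000 nM group lay apart from its DMSO group, below it, with a log2 change of -0.35 ± 0.16 (95% interval -0.69 to 0.00, -0.05 after centring, limma adjusted p = 0.161), which was not called. The 3 other changes were 0.22 and -0.09 in the XG1 libraries and -0.13 in AMO1.

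CREB3L2, an ER membrane factor released by the same proteases as ATF6 and active in secretory cells, fell. It was at 5.13, 3.52 and 3.16 FPKM in XG1 DMSO libraries, 1.70, 2.31 and 2.01 at 100 nM and 1.68, 1.28 and 1.68 at 1000 nM. The AMO1 values were 12.4, 16.5 and 13.6 FPKM in DMSO, 8.91, 6.08 and 7.91 at 100 nM and 8.52, 6.44 and 6.40 at 1000 nM. Every treated library lay below every DMSO library of its line. The log2 change at 1000 nM was -0.94 ± 0.19 in the XG1 libraries (-0.68 after centring, limma adjusted p = 0.00208) and -0.90 ± 0.19 in AMO1 (-0.61 after centring, adjusted p = 0.00283). At 100 nM it was -0.70 ± 0.19 (adjusted p = 0.0300) and -0.81 ± 0.19 (adjusted p = 0.0250). The XG1 100 nM call ended in 8 of 15 alternatives, among them a pseudocount of 5 (adjusted p = 0.0782), no filter on low genes (0.0565), a fit of only the groups compared (0.0535) and leaving out DMSO replicate 1 or 2 or 100 nM replicate 1 or 3 (up to 0.149). The AMO1 100 nM call ended in 7 of 15, among them a pseudocount of 0.1 (0.0661), a fit of only the groups compared (0.0986) and leaving out DMSO replicate 1 or 2 or 100 nM replicate 2 or 3 (up to 0.146).

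Of the 10 chaperones and lectins, HSPA5 and MANF moved and the other 8 were not called at any dose in either line. HSPA5, an HSP70 protein that binds unfolded chains and holds the sensors inactive, was at 203, 184 and 193 FPKM in XG1 DMSO libraries. With inhibitor it was at 110.2, 99.2 and 88.9 FPKM at 100 nM and 95.1, 107 and 87.9 at 1000 nM, so all 6 treated XG1 libraries lay far below the 3 in DMSO. The log2 change was -0.95 ± 0.17 at 100 nM (limma adjusted p = 0.00144) and -0.99 ± 0.17 at 1000 nM (-0.74 after centring, adjusted p = 4.64e-04), a mean level 1.94 and 2.0 times lower.

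In AMO1 HSPA5 was at 959, 961 and 569 FPKM in DMSO, 625, 689 and 715 at 100 nM and 469, 476 and 469.6 at 1000 nM. DMSO replicate 3 lay below all 3 of the 100 nM libraries, while the 1000 nM libraries lay below every DMSO library and close together. The change was -0.26 ± 0.17 at 100 nM (limma adjusted p = 0.506), not called, and -0.77 ± 0.17 at 1000 nM (adjusted p = 0.00323). Without DMSO replicate 3 the 100 nM change was -0.51 and called (adjusted p = 0.00986). The 1000 nM call ended after centring (-0.48, adjusted p = 0.0834). That DMSO library was the lowest of its group in 23 of the 42 ER genes and in 71.0% of all genes tested, and under 75% of the next lowest in 11 of the 42 and in 35.4% of all genes. The 11 include SEC61A1, SDF2L1, CRELD2, SSR2 and SSR3.

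MANF was at 159, 114 and 92.3 FPKM in XG1 DMSO libraries, 79.9, 80.2 and 82.7 at 100 nM and 77.8, 48.8 and 60.4 at 1000 nM. AMO1 had 251, 251 and 324 FPKM in DMSO, 269, 221 and 257 at 100 nM and 154, 175 and 174 at 1000 nM. The 1000 nM libraries lay below the DMSO libraries in both lines, and at 100 nM this held only in the XG1 libraries. MANF fell at 1000 nM, with a log2 change of -0.94 ± 0.18 in the XG1 libraries (-0.69 after centring, limma adjusted p = 0.00168) and -0.71 ± 0.18 in AMO1 (adjusted p = 0.0117). The AMO1 call ended after centring (-0.41, adjusted p = 0.115), after quantile normalization (-0.51, 0.105) and without 1000 nM replicate 1 (0.0564). At 100 nM the changes were -0.55 ± 0.18 (adjusted p = 0.0829; called after centring at 0.0477 and without DMSO replicate 3 at 0.0354) and -0.14 ± 0.18 (adjusted p = 0.818).

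The chaperones that stayed uncalled include close partners of HSPA5. HSP90B1 (GRP94), the ER form of HSP90, had log2 estimates of -0.18 and -0.31 in the XG1 libraries and 0.16 and -0.05 in AMO1, 100 nM first. The nucleotide exchange factor HYOU1 had 0.01, 0.03, 0.22 and 0.11 in the same order, and the J-domain cochaperone DNAJB11 0.08, 0.03, 0.17 and 0.09. At 1000 nM the 95% interval for HYOU1 was -0.36 to 0.42 in the XG1 libraries and -0.27 to 0.50 in AMO1, and for DNAJB11 -0.25 to 0.31 and -0.20 to 0.37. The lower ends of these intervals lie above the HSPA5 estimates of -0.99 and -0.77. The J-domain proteins DNAJB9 and DNAJC3 had wider intervals, -0.82 to 0.30 and -0.28 to 0.58 in the XG1 libraries at 1000 nM. The lectin chaperones CALR and CANX, which hold glycoproteins during folding, lay between -0.16 (CALR, XG1 libraries at 1000 nM) and 0.15 (CANX, XG1 libraries at 100 nM). SDF2L1, a partner of ER J-domain proteins, had -0.46 ± 0.21 in the XG1 libraries at 100 nM (limma adjusted p = 0.206).

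**Figure D2:**
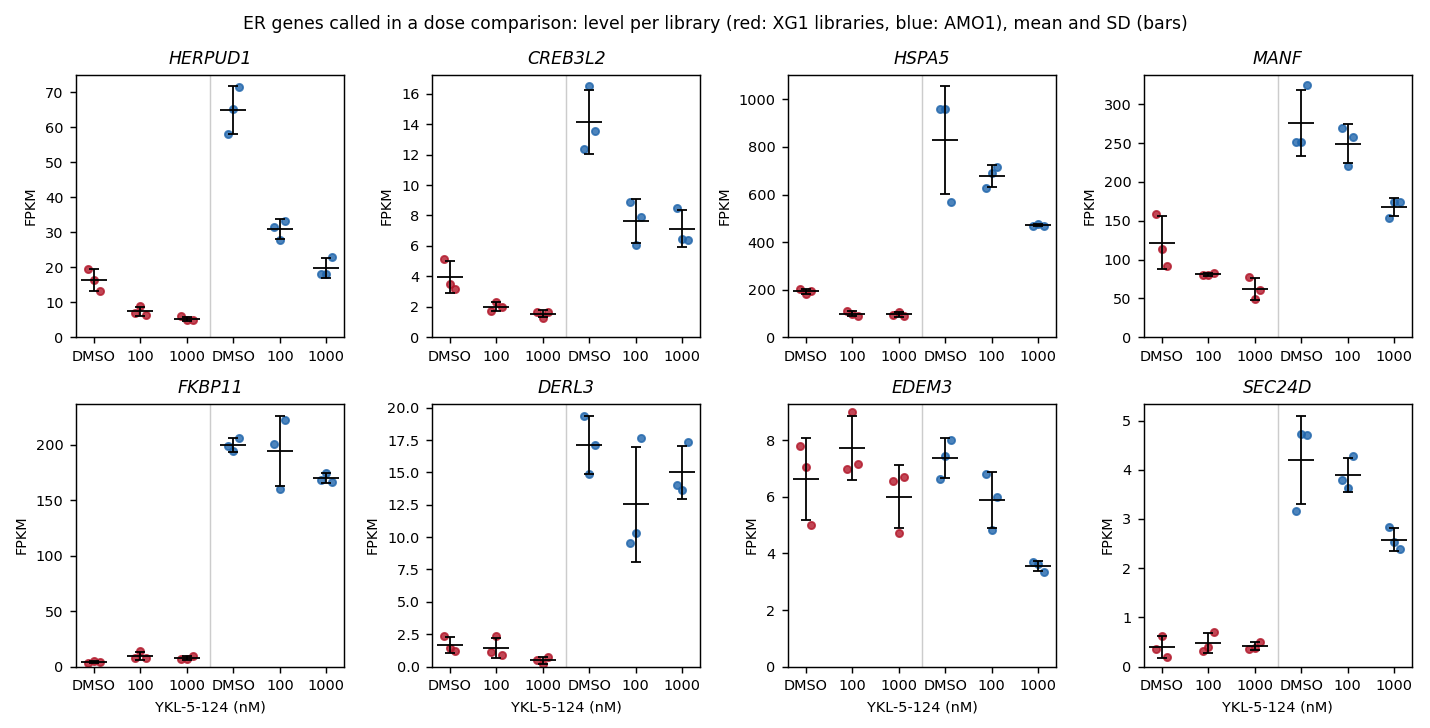
Level in FPKM of the 8 ER genes called in at least 1 comparison of a dose with DMSO, by line and dose; points are libraries, the long bar is the mean and the whiskers the SD of 3. The treated HERPUD1 and CREB3L2 points lie below all DMSO points of their line, AMO1 DMSO replicate 3 stands at 569 FPKM for HSPA5, and FKBP11 is at 3.52 to 14 FPKM in the XG1 libraries and 159.9 FPKM or more in AMO1.

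Of the 11 tested disulfide and prolyl isomerase enzymes, 1 was called, FKBP11, and it rose. This membrane-bound prolyl isomerase was at 3.52, 4.62 and 4.42 FPKM in XG1 DMSO libraries, 7.28, 14 and 7.37 at 100 nM and 7.19, 6.55 and 9.53 at 1000 nM. Each treated XG1 library lay above each DMSO library. The rise was 0.97 ± 0.20 log2 at 100 nM (limma adjusted p = 0.00504) and 0.75 ± 0.20 at 1000 nM (1.01 after centring, adjusted p = 0.0128), and the call at 1000 nM ended without DMSO replicate 1 (0.0726).

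AMO1 had far more FKBP11, 199, 194 and 206 FPKM in DMSO, 200.5, 159.9 and 222 at 100 nM and 168, 175 and 166 at 1000 nM. The groups overlapped at 100 nM, and at 1000 nM all libraries lay just below DMSO, but neither change was called (-0.05 ± 0.20 and -0.23 ± 0.20, 0.12 and 0.06 after centring, limma adjusted p = 0.971 and 0.477). The difference of the line responses was 1.02 ± 0.28 log2 at 100 nM and 0.98 ± 0.28 at 1000 nM, and it was not called over all genes (limma adjusted p = 0.174 and 0.117). FKBP2, a soluble relative, was not called, with 0.01 and -0.18 in the XG1 libraries and -0.08 and 0.04 in AMO1.

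The protein disulfide isomerases, which make and reshuffle disulfide bonds, were not called at any dose. P4HB had log2 estimates of 0.04 and 0.01 in the XG1 libraries and 0.23 and 0.00 in AMO1, with 95% intervals at 1000 nM of -0.27 to 0.30 and -0.29 to 0.28. PDIA6 had 0.23, 0.04, 0.19 and -0.08 in the same order, and PDIA4 0.26, -0.13, 0.18 and -0.24. For PDIA3, whose reads can be shared with its copy, the values were 0.15, 0.10, 0.05 and -0.15. At 1000 nM the oxidase ERO1A was at -0.35 ± 0.17 and -0.38 ± 0.17 (limma adjusted p = 0.163 and 0.133) and the reductase DNAJC10 at -0.44 ± 0.17 and -0.15 ± 0.17 (adjusted p = 0.0754 and 0.634). The thioredoxin-domain proteins TXNDC5 and TXNDC11 had -0.49 and -0.21 in AMO1 at 1000 nM. CRELD2, a stress-induced ER protein, stood at 0.39 there, with an interval of -0.12 to 0.90.

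Among the 10 degradation genes HERPUD1 changed most. HERPUD1 recruits partners to the SYVN1 complex and is itself a short-lived protein and a target of the unfolded protein response. It was at 19.4, 16.4 and 13.4 FPKM in XG1 DMSO libraries, 7.09, 8.85 and 6.27 at 100 nM and 5.97, 5.00 and 4.93 at 1000 nM. AMO1 had 58.0, 65.1 and 71.6 FPKM in DMSO, 31.6, 27.9 and 33.3 at 100 nM and 18.2, 18.1 and 23.0 at 1000 nM. In both lines the 3 groups did not overlap with each other: DMSO was highest and 1000 nM lowest.

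HERPUD1 fell at both doses, with a log2 change of -1.05 ± 0.17 at 100 nM in the XG1 libraries (limma adjusted p = 7.20e-04) and -1.45 ± 0.17 at 1000 nM (-1.20 after centring, adjusted p = 9.97e-06). In AMO1 the changes were -1.04 ± 0.17 (adjusted p = 0.00180) and -1.67 ± 0.17 (-1.37 after centring, adjusted p = 3.06e-06). As a ratio of mean levels this was 2.21 and 3.09 times lower in the XG1 libraries and 2.10 and 3.28 times lower in AMO1. These 4 calls were kept in each of the 15 alternatives run for each of them, with adjusted p of 0.0398 or less. The difference of the line responses was 0.00 ± 0.24 at 100 nM (95% interval -0.49 to 0.49) and 0.21 ± 0.24 at 1000 nM (-0.28 to 0.71).

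DERL3 and EDEM3 were each called in 1 comparison. DERL3, a derlin of secretory cells that helps pull proteins out of the ER, was at 2.36, 1.41 and 1.19 FPKM in XG1 DMSO libraries, 1.09, 2.35 and 0.918 at 100 nM and 0.477, 0.204 and 0.736 at 1000 nM. In AMO1 it was at 19.3, 14.9 and 17.1 FPKM in DMSO, 9.58, 10.3 and 17.7 at 100 nM and 14, 13.7 and 17.3 at 1000 nM. Of these groups only XG1 1000 nM lay apart from its DMSO group, with a log2 change of -0.84 ± 0.24 (-0.58 after centring, limma adjusted p = 0.0217). That call ended with a pseudocount of 5 (adjusted p = 0.203), with no filter on low genes (0.0567) and without DMSO replicate 1 (0.129) or 1000 nM replicate 2 (0.104). The AMO1 change at 1000 nM was -0.18 ± 0.24 (adjusted p = 0.704), and the difference of the responses was -0.66 ± 0.34 (adjusted p = 0.553).

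EDEM3, a mannosidase that trims glycans of misfolded proteins, was at 7.81, 7.06 and 5.02 FPKM in XG1 DMSO libraries, 6.98, 9.02 and 7.18 at 100 nM and 6.57, 4.72 and 6.72 at 1000 nM. AMO1 levels were 6.62, 7.46 and 8.02 FPKM in DMSO, 6.80, 4.83 and 6.01 at 100 nM and 3.69, 3.63 and 3.36 at 1000 nM. The AMO1 1000 nM libraries lay below all other AMO1 libraries and close together, while the XG1 groups overlapped. The AMO1 log2 change at 1000 nM was -0.87 ± 0.18 (-0.58 after centring, limma adjusted p = 0.00261), beside -0.12 ± 0.18 in the XG1 libraries (adjusted p = 0.726). The difference of the responses, 0.75 ± 0.26, was not called (adjusted p = 0.230).

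The core of the degradation complex was not called at any dose. SEL1L, its adaptor, had log2 estimates of -0.19 and -0.33 in the XG1 libraries and -0.17 and -0.17 in AMO1. SYVN1, the ubiquitin ligase, had 0.25, -0.17, 0.17 and 0.11, and was called higher in the XG1 libraries at 100 nM after quantile normalization and in AMO1 at 1000 nM after centring. The lectin OS9, which hands glycoproteins to SEL1L, stood at -0.02 in the XG1 libraries and 0.30 in AMO1 at 1000 nM. The derlins DERL1 and DERL2 had -0.44 and -0.19 in the XG1 libraries at that dose, and -0.13 and -0.27 in AMO1. EDEM2, a mannosidase like EDEM3, was at 0.51 ± 0.25 in the XG1 libraries at 100 nM (limma adjusted p = 0.246), with an interval of 0.00 to 1.03, and EDEM1 at 0.17.

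Translocon and export genes had 1 call, among 8 genes and 4 comparisons. SEC24D, a cargo adaptor of the COPII coat that carries proteins out of the ER, was at 3.16, 4.72 and 4.71 FPKM in AMO1 in DMSO, 3.78, 3.62 and 4.28 at 100 nM and 2.84, 2.53 and 2.38 at 1000 nM. In the XG1 libraries it stayed under 1 FPKM, at 0.367, 0.631 and 0.199 in DMSO, 0.309, 0.403 and 0.698 at 100 nM and 0.352, 0.374 and 0.505 at 1000 nM. The AMO1 1000 nM libraries lay below the DMSO libraries, with a log2 change of -0.52 ± 0.17 (limma adjusted p = 0.0396). This call was lost in 11 of 14 alternatives, with an adjusted p of 0.406 after centring (-0.23), 0.345 after quantile normalization and up to 0.154 without single libraries (DMSO replicate 2 or 3 or any 1000 nM replicate).

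SEC61A1, the pore of the translocon, was at 23.2, 23.9 and 20.1 FPKM in XG1 DMSO libraries, 23.7, 20.3 and 18.2 at 100 nM and 20.9, 19.1 and 17.4 at 1000 nM. In AMO1 it was at 250.2, 259 and 142 FPKM in DMSO, 188, 207 and 216 at 100 nM and 162, 166 and 168 at 1000 nM. All dose groups overlapped with DMSO, in AMO1 through DMSO replicate 3 alone. Its log2 estimates were -0.11 ± 0.18 and -0.22 ± 0.18 in the XG1 libraries and -0.04 ± 0.18 and -0.34 ± 0.18 in AMO1, none called, and without that library the AMO1 change at 1000 nM was -0.62 and called (limma adjusted p = 0.00175). The other channel subunits SEC61B and SEC61G had -0.10 and 0.01 in the XG1 libraries at 1000 nM and -0.10 and -0.15 in AMO1. The translocon-associated proteins SSR1, SSR2, SSR3 and SSR4 lay between -0.33 (SSR1) and 0.15 (SSR4) in the XG1 libraries at 1000 nM, and between -0.27 (SSR1) and 0.07 (SSR3) in AMO1.

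The 95% intervals, and not the lack of a call, bound the changes of most of these genes. Of the 42 genes, 34 were called in no comparison of a dose with DMSO. In the XG1 libraries at 1000 nM and in AMO1 at 100 nM, the 95% intervals of all 34 lay within 1 log2 unit of 0. In the XG1 libraries at 100 nM 33 did, with EDEM2 reaching 1.03, and in AMO1 at 1000 nM 33 did, with TXNDC5 reaching -1.08. These 34 were picked for not being called, so they cannot be set against shares that include called genes. Of all 42 ER genes, called or not, 37 and 36 had such intervals in the XG1 libraries at 100 and 1000 nM, and 40 and 36 in AMO1. Over all genes tested, called or not, the shares were 83.4% and 76.4% in the XG1 libraries, and 87.0% and 76.5% in AMO1. A 2-fold change on the log2(FPKM + 1) scale was thus outside the interval for nearly all uncalled ER genes, and smaller changes are not bounded in this way.

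Of the 9 tested genes with either ER stress element, HSPA5 and HERPUD1 were the only ones called. The 9 had 2 lower in the XG1 libraries at 100 nM, 2 at 1000 nM, and 1 and 2 in AMO1, with 0 higher. Of all genes 3.98%, 15.7%, 1.76% and 15.4% were lower, and at 1000 nM 2 of 9 is near that share. The other 33 ER genes had 1, 3, 1 and 4 lower in the same order and FKBP11 higher at both doses in the XG1 libraries. In the XG1 libraries at 1000 nM the 9 estimates ran from -1.45 to 0.04 log2, and 6 were below 0. Their median was -0.26, beside -0.19 for all genes. PDIA6, a carrier of the same element as HSPA5, had a 95% interval of -0.25 to 0.33 there, where HSPA5 had -1.34 to -0.65. HSP90B1 and CALR, carriers given above, had lower estimates than PDIA6. HYOU1 and SDF2L1, which share element II with HERPUD1, had -0.36 to 0.42 and -0.69 to 0.18 there, where HERPUD1 had -1.80 to -1.11. Whether carriers differed from each other, or from other genes, was not tested.

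**Figure D3:**
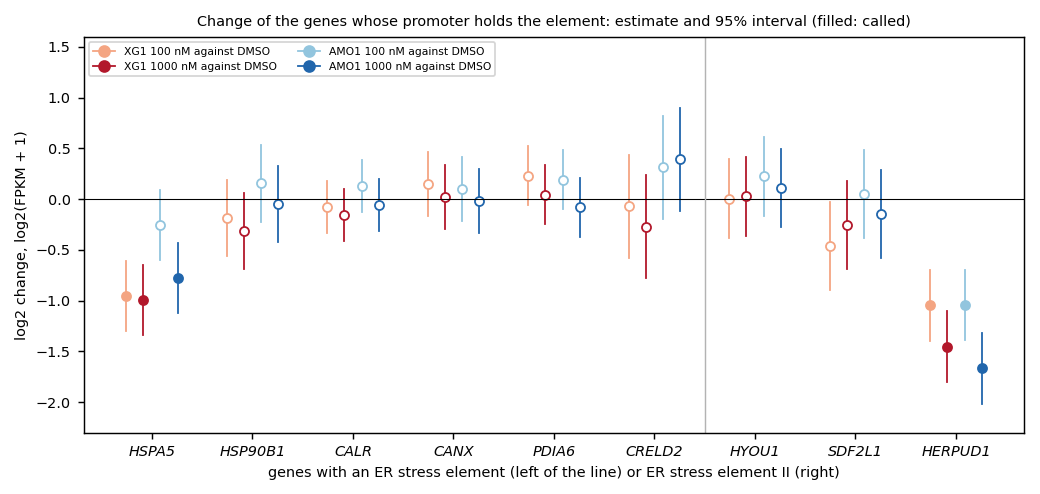
Log2 change with 95% interval, on the log2(FPKM + 1) scale, of the 9 tested genes whose promoter window holds an ER stress element (left of the line) or ER stress element II (right), for each line and dose; filled points were called. HSPA5 and HERPUD1 lie below 0 in all 4 comparisons, HSPA5 with an open symbol in AMO1 at 100 nM, and the other 7 genes have open symbols throughout.

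Raising the dose from 100 to 1000 nM gave 0 ER genes called by limma in either line, beside 0.139% of all genes in the XG1 libraries (0.0% higher and 0.139% lower) and 0.18% in AMO1 (0.0328% higher and 0.147% lower). At an unadjusted p under 0.05 there were 8 in each line, and the share of all genes at that threshold is not given here. The median of the 42 genes was -0.19 in the XG1 libraries and -0.18 in AMO1, beside -0.18 and -0.11 for all genes. HERPUD1 at 1000 minus 100 nM was -0.41 ± 0.17 log2 in the XG1 libraries and -0.62 ± 0.17 in AMO1 (limma adjusted p = 0.240 and 0.151), with no overlap of the groups in either line. HSPA5 differed by -0.04 ± 0.17 between the doses in the XG1 libraries, where the groups overlapped, and by -0.52 ± 0.17 in AMO1, where they did not (adjusted p = 0.950 and 0.242). With only the AMO1 dose groups in the fit HSPA5 was called. EDEM2 had the largest dose difference of the XG1 libraries, -0.83 ± 0.25 (adjusted p = 0.128), and was called without 1000 nM replicate 1.

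The test of the difference between the lines' responses likewise called 0 of 42 ER genes at 100 nM and at 1000 nM. Of all genes it called 0.156% (0.0901% higher and 0.0656% lower) and 0.68% (0.328% higher and 0.352% lower). At an unadjusted p under 0.05, where the share of all genes is not given here, there were 2 and 3 ER genes. At 100 nM these were FKBP11 and HSPA5, whose response in the XG1 libraries minus that in AMO1 was -0.70 ± 0.23 log2 (limma adjusted p = 0.298). At 1000 nM they were FKBP11, EDEM3 and SEC24D, and HSPA5 differed by -0.22 ± 0.23 (95% interval -0.71 to 0.27). CREB3L2 differed by 0.12 ± 0.27 at 100 nM and -0.04 ± 0.27 at 1000 nM, with intervals of -0.44 to 0.67 and -0.59 to 0.52, and MANF by -0.41 ± 0.26 and -0.24 ± 0.26.

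The largest contrast in these genes was between the lines without inhibitor. In DMSO, 38 of 42 ER genes were lower in the XG1 libraries than in AMO1 and 0 were higher, beside 62.7% of all genes called (28.3% higher and 34.4% lower). The median of the 42 was -1.51 log2, where that of all genes was -0.08. The 4 uncalled genes were ATF6, EDEM1, EDEM2 and EDEM3. By role 2 of 3 tested sensors and factors, 10 of 10 chaperones and lectins, 11 of 11 disulfide and isomerase enzymes, 7 of 10 degradation genes and 8 of 8 translocon and export genes were lower.

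**Figure D4:**
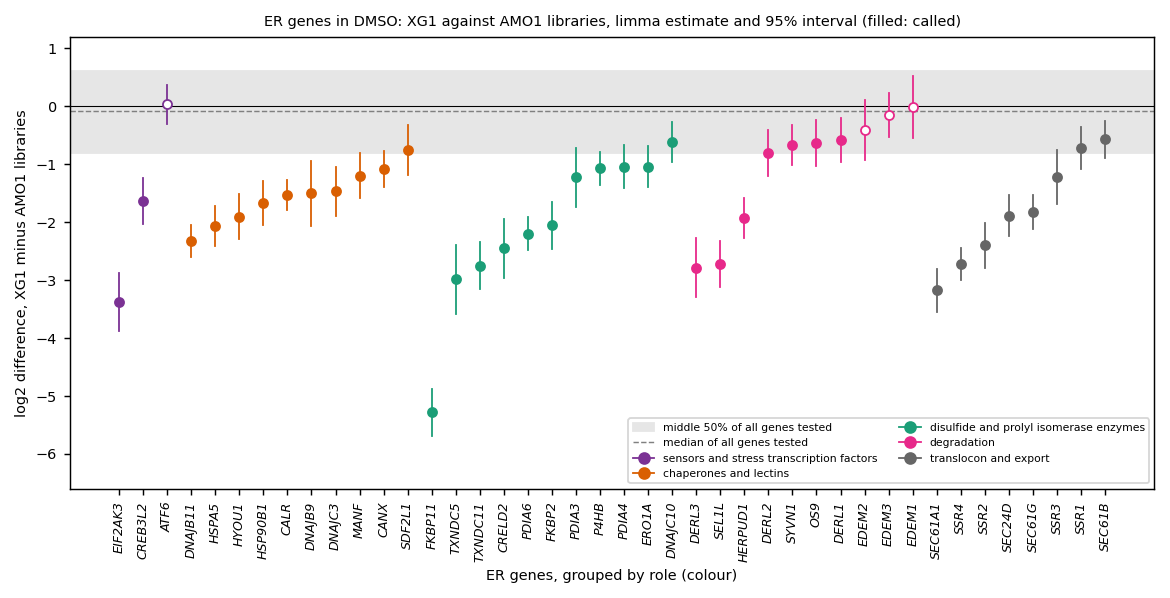
Log2 difference in DMSO, XG1 libraries minus AMO1, with its 95% interval for each tested ER gene, ordered within its role (colour); filled points were called, the grey band holds the middle 50% of all genes tested and the dashed line is their median. FKBP11 is lowest at -5.28, the chaperones lie between -2.32 and -0.76, and ATF6 and the 3 EDEM genes are the open points.

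FKBP11 stood furthest apart, at 4.19 ± 0.585 against 199.6 ± 6.04 FPKM, XG1 libraries first (-5.28 ± 0.20 log2, limma adjusted p = 6.31e-15), a mean 47.7 times lower. EIF2AK3 followed, at 2.13 ± 0.699 against 31.2 ± 4.26 FPKM (-3.38 ± 0.24, adjusted p = 1.47e-10), and then SEC61A1, at 22.4 ± 2.01 against 217 ± 64.8 FPKM (-3.17 ± 0.18, adjusted p = 4.35e-12). In these 3 genes no XG1 DMSO library came near the lowest AMO1 library. The sensor ATF6 was not called, at 8.2 ± 1.32 against 7.94 ± 0.559 FPKM (0.03 ± 0.16, adjusted p = 0.875), although it became higher in the XG1 libraries under the scaling to equal sums given below. CREB3L2, at 3.93 ± 1.05 against 14.1 ± 2.13 FPKM, was lower (-1.63 ± 0.19, adjusted p = 2.46e-07).

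Within each role the size of the difference varied. Among the chaperones it ran from -2.32 log2 for DNAJB11 and -2.06 for HSPA5, at 193 ± 9.78 against 829.8 ± 226 FPKM, to -0.76 for SDF2L1. Between them lay HYOU1 (-1.91), HSP90B1 (-1.67), CALR (-1.53), DNAJB9 (-1.5), DNAJC3 (-1.47), MANF (-1.20) and CANX (-1.08). Among the enzymes TXNDC5 (-2.98), TXNDC11 (-2.75), CRELD2 (-2.45), PDIA6 (-2.20) and FKBP2 (-2.05) came after FKBP11, and DNAJC10 (-0.61) was the least changed. PDIA3 (-1.22), P4HB (-1.07), PDIA4 (-1.04) and ERO1A (-1.04) lay close together.

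The degradation genes differed unevenly between the lines. DERL3 (-2.79, 1.66 ± 0.622 against 17.1 ± 2.24 FPKM), SEL1L (-2.72, 2.63 ± 0.180 against 23.4 ± 6.34 FPKM) and HERPUD1 (-1.93) were far lower in the XG1 libraries. SYVN1, the partner of SEL1L, differed by -0.66, at 18.1 ± 1.73 against 29.3 ± 1.61 FPKM, and DERL1 (-0.58), DERL2 (-0.80) and OS9 (-0.63) by similar amounts. The mannosidases EDEM1 (-0.01), EDEM2 (-0.41) and EDEM3 (-0.15) were not called, with 95% intervals of -0.55 to 0.53, -0.92 to 0.11 and -0.53 to 0.23.

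Subunits of one complex also differed. The log2 difference was -3.17 for SEC61A1, -1.82 for its partner SEC61G and -0.57 for SEC61B. SSR4 (-2.72), whose reads can be shared with its copy, and SSR2 (-2.4) were lower by more than SSR3 (-1.22) and SSR1 (-0.72), and SEC24D differed by -1.89. Whether the differences of 2 genes were themselves unequal was not tested.

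Some scalings moved this contrast. The FPKM values of all genes summed to 741443 to 957143 in the XG1 libraries and to 1462898 to 2072842 in AMO1. After each library was scaled to the same sum, an alternative added after the sums were seen, 22 of 42 ER genes were lower and 4 (ATF6, EDEM1, EDEM3 and SEC61B) higher in the XG1 libraries, beside 14.1% of all genes lower and 58.0% higher, and the medians were -0.57 for the ER genes and 0.72 for all genes. HSPA5 (-1.01), HERPUD1 (-0.92), EIF2AK3 (-2.49), FKBP11 (-4.31) and SEC61A1 (-2.15) were then still called lower and MANF (-0.15, limma adjusted p = 0.486) was not. After quantile normalization 36 were lower, and SDF2L1 (-0.16) and SEC61B (0.11, the opposite sign) were not called. After median centring, and after spike-in scaling, 38 were lower and 0 higher. Of all genes 34.6% were then lower and 32.7% higher with centring, and 33.2% and 29.2% with spike-in scaling. The spike-in scaling used deviations of only -0.078 to 0.073 log2 per library. It could therefore hardly change the deposited values, and its count is no separate check of the contrast. Spike-in RNAs, whose added amounts the labels do not give, differed between the lines in DMSO by a median of -0.09 log2 with an SD of 0.53 over 44 spike-ins. The plasma cell marker sum was 72.1 to 75.9 FPKM in the XG1 DMSO libraries and 5215 to 7249 in those of AMO1, and the erythroid sum 4355 to 4491 and 7.74 to 14.7. The part of cell type in the difference of the ER genes was not tested.

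Other genes of the pathway, a fixed list of 40 that were all tested, included falls of ATF4 and its target DDIT3 in the XG1 libraries at both doses. In the XG1 libraries at 100 nM 3 of 40 were lower and 0 higher: ATF4, the factor made when PERK is active (-1.37 ± 0.20 log2, limma adjusted p = 3.24e-04), DDIT3, the CHOP protein (-0.98 ± 0.14, adjusted p = 3.42e-04), and MBTPS1, the protease that cuts ATF6 (-0.58 ± 0.16, adjusted p = 0.0319). The 3 of 40 stand beside 6.61% of all genes called. At 1000 nM 6 were lower, beside 17.6% of all genes called, the largest falls being ATF4 (-1.35, from 119 to 46.1 FPKM), DDIT3 (-1.10), MBTPS1 (-0.85) and XBP1, the factor spliced by IRE1 (-0.77). In AMO1 limma called 0 of 40 at 100 nM, beside 2.2% of all genes called. At an unadjusted p under 0.05, where the share of all genes is not given here, there were 6. Without DMSO replicate 3 limma called 3 of the 40 at 100 nM, beside 7.99% of all genes. With all libraries, at 1000 nM 6 were lower and 1 higher, PPP1R15A, which ends the PERK signal (0.60), beside 17.1% of all genes called. These counts lie near the shares of all genes. The falls were largest in KDELR3, a retrieval receptor (-1.07), UBE2J1, a ubiquitin-conjugating enzyme of ER degradation (-0.84), MBTPS1 (-0.81) and MBTPS2, the second protease that cuts ATF6 (-0.65). ATF4 (-0.61 ± 0.20, limma adjusted p = 0.0394) and DDIT3 (-0.43 ± 0.14, adjusted p = 0.0437) were also called in AMO1 at 1000 nM, but not after centring (-0.32 and -0.14), with no filter, with only the groups compared, or when DMSO replicate 1 or 2 or a single 1000 nM library was left out. After centring the split was 1 higher and 4 lower (XG1 libraries, 100 nM), 1 and 5 (1000 nM), 2 and 0 (AMO1, 100 nM) and 3 and 3 (1000 nM), and after quantile normalization 2 and 4, 2 and 5, 1 and 1, and 2 and 5. Of all genes the higher and lower shares after centring were 5.01% and 7.28%, 7.94% and 7.94%, 2.37% and 1.54%, and 8.29% and 6.68%. After quantile normalization they were 7.31% and 8.08%, 9.62% and 9.91%, 1.68% and 2.08%, and 7.06% and 8.28%. The AMO1 count at 1000 nM was 14 without DMSO replicate 3, beside 24.9% of all genes called. It was 4 (KDELR3, MBTPS1, PPP1R15A and UBE2J1) without DMSO replicate 1 or 2 or 1000 nM replicate 1 or 2, beside 9.73% to 10.3% of all genes.

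Between the lines in DMSO 19 of the 40 were lower and 7 higher in the XG1 libraries, beside 34.4% of all genes lower and 28.3% higher, and beside 38 lower and 0 higher of the 42 ER genes listed first. The largest were SIL1, an exchange factor of HSPA5 (-3.05, 4.29 ± 0.432 against 43.9 ± 12.4 FPKM), WFS1, an ER membrane protein (-2.70), SEC11C, a signal peptidase subunit (-2.59), and AUP1, a degradation factor (-2.55). WFS1 had a mean of 0.0958 FPKM in the XG1 DMSO libraries, near their floor of low values given for ERN1, against 6.24 FPKM in AMO1. After quantile normalization 17 were lower and 10 higher, beside 32.5% and 34.7% of all genes. With equal sums the split of this list turned to 8 lower and 21 higher, beside 14.1% and 58.0% of all genes, so its direction between the lines depends on the scaling.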

How the data were processed

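The deposited tables hold 1 FPKM value (fragments scaled by transcript length and by the library's mapped reads) per gene and library, labelled only as expression per the file headers. Per the submitters' processing notes, HISAT2, Cuffnorm and the hg19 build were used, with no versions or order stated. How the values were scaled between libraries is not stated. The median spike-in deviation was -0.078 to 0.073 log2 over the 18 libraries, while the sums of all genes differed between the lines. The values may therefore not be relative to each library's mapped reads alone, which was not tested. A level per length is hard to read from 3′ end libraries, so levels were not compared between genes. Spike-in RNAs (92) were left out of the tests, and 44 of them were used to compare libraries.

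Values were analysed as log2(FPKM + 1) with limma 3.58.1 (R 4.3.3, statmod 1.5.0), with 1 mean per group over all 18 libraries and a robust, intensity-dependent variance prior. The test covered the 12204 genes whose mean reached 1 FPKM in 1 or more groups. Moderated tests were 2-sided, p-values were adjusted by Benjamini-Hochberg over all genes tested, and the 9 comparisons were adjusted separately. The script was tested on simulated data.

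Every listed gene is accounted for. Values in every library are given for HSPA5, HERPUD1, ERN1, EIF2AK3 and ATF6, for genes called in a comparison of a dose with DMSO whose groups did not overlap (up to 4 per role and comparison) and for the 3 largest called differences per direction between the lines. The other pathway genes are given by counts and up to 4 called genes per comparison. The genes, lists and tests were chosen with earlier results of these data known. Alternatives were pseudocounts of 0.1 and 5, no filter or a minimum of 5 FPKM, median centring, quantile normalization, spike-in scaling, a fit of only the groups compared, a replicate block, each library left out in turn and, chosen after seeing the data, equal sums of FPKM. Protein features were not analysed here.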

Additional observations from a re-analysis of the deposited data

How the results depend on the processing

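The tested ER genes given in every library had 955 results under the alternatives, each for 1 gene, 1 comparison and 1 setting. Of these 871 kept the direction and the side of the threshold, 36 lost a call, 5 gained one and 43 changed sign. A result that was not called and stayed so counts among the 871, so this number does not measure how firm the calls are. The number of ER genes called ranged over the alternatives from 3 to 7 (XG1 libraries, 100 nM), 4 to 11 (1000 nM), 1 to 3 (AMO1, 100 nM), 4 to 7 (1000 nM) and 26 to 40 (lines in DMSO), with 0 in every setting for the differences of the responses. Of all genes 2.13% to 15.4%, 5.92% to 22.9%, 0.598% to 7.99%, 6.04% to 24.9% and 29.7% to 72.1% were called over the same settings. For the differences of the responses it was 0.0082% to 0.623% at 100 nM and 0.221% to 1.77% at 1000 nM. Between the lines, the 40 were of 44 tested with no filter, and the 26 came from equal sums, 22 lower and 4 higher. With quantile normalization the number of ER genes called was 7 in the XG1 libraries at 100 nM and 11 at 1000 nM, beside 15.4% and 19.5% of all genes. For AMO1 at 100 nM it was 1 with a pseudocount of 0.1 and 1 with only the groups compared, beside 1.12% and 0.598% of all genes. For 1000 against 100 nM in AMO1 it was 1 with only the groups compared, beside 0.83% of all genes. Without single libraries the counts were 1 to 3 for AMO1 at 100 nM and 0 to 1 for the doses in the XG1 libraries. Of all genes 0.826% to 7.99% and 0.0082% to 2.54% were then called.

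Replicate numbers did not pair the libraries: over 18 same-numbered pairs the correlations of the deviations ran from -0.12 to 0.09, with 0 over 0.1. With the replicate number as a block, 3, 6, 1 and 5 ER genes were called (XG1 libraries at 100 and 1000 nM, AMO1 at 100 and 1000 nM) in place of 4, 6, 2 and 6. Of all genes 3.98%, 12.4%, 1.01% and 11.9% were then called. The calls lost were CREB3L2 at 100 nM in the XG1 libraries (adjusted p = 0.0801) and in AMO1 (0.0842) and SEC24D in AMO1 at 1000 nM (0.0863). The block called 4 of the other pathway genes in AMO1 at 1000 nM in place of 7.

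Among the genes given in every library, signs turned only for values reported above as not called. With centring they became 0.12 for EIF2AK3 (AMO1, 1000 nM), 0.17 for ATF6 (XG1 libraries, 1000 nM), 0.046 for ATF6 (AMO1, 100 nM), 0.12 and 0.060 for FKBP11 (AMO1, 100 and 1000 nM), 0.039 for MANF (AMO1, 100 nM), 0.11 for DERL3 (AMO1, 1000 nM), 0.14 for EDEM3 (XG1 libraries, 1000 nM), 0.10 for SEC24D (AMO1, 100 nM), and 0.041 (XG1 libraries, 1000 nM) and 0.13 (AMO1, 100 nM) for SEC61A1. With quantile normalization they became 0.059 for EIF2AK3 (AMO1, 1000 nM), 0.21 and 0.024 for ATF6 (XG1 libraries at 1000 nM, AMO1 at 100 nM), 0.075 for DERL3 (AMO1, 1000 nM), 0.17 for EDEM3 (XG1 libraries, 1000 nM), 0.10 for SEC24D (AMO1, 100 nM), and 0.026 and 0.11 for SEC61A1 (XG1 libraries, 100 and 1000 nM). With equal sums EDEM3 became 0.76 between the lines. Without single libraries the ranges were -0.20 to 0.025 (ATF6, XG1 libraries, 1000 nM), -0.059 to 0.15 (ATF6, lines), -0.38 to 0.047 (DERL3, XG1 libraries, 100 nM), -0.28 to 0.021 (EDEM3, XG1 libraries, 1000 nM), -0.26 to 0.014 (EDEM3, lines), -0.11 to 0.072 (EIF2AK3, AMO1, 100 nM), -0.26 to 0.32 (EIF2AK3, XG1 libraries, 1000 nM), -0.16 to 0.080 (FKBP11, AMO1, 100 nM), -0.35 to 0.031 (HSPA5, responses at 1000 nM), -0.23 to 0.0040 (SEC24D, AMO1, 100 nM), -0.035 to 0.19 and -0.083 to 0.14 (SEC24D, XG1 libraries, 100 and 1000 nM) and -0.32 to 0.11 (SEC61A1, AMO1, 100 nM). The cause was not tested. SEC24D has no value with the minimum of 5 FPKM. The unknown depth limits what can be said of genes under or near 1 FPKM, such as ERN1, ERO1B and, in the XG1 libraries, DERL3.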
